A study of Mus musculus with 8 samples.

Results

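The erythroid genes described here are 9 genes of red blood cell precursors, taken by gene symbol from a table of 20943 genes: the adult alpha globins Hba-a1 and Hba-a2, the adult beta globins Hbb-bs and Hbb-bt, Alas2, Slc4a1, Epb42, Rhag and Klf1. All 9 were in the table and all 9 were tested. They were measured by poly-A RNA sequencing in 8 malignant peripheral nerve sheath tumors (MPNST) of mice, soft tissue sarcomas that arise in nerves, and the series asks how loss of Polycomb repressive complex 2 (PRC2) acts in these tumors. In both groups the floxed tumor suppressor genes Nf1 and Cdkn2a were inactivated by Plp-CreERT, a Cre recombinase that tamoxifen activates and that the Plp promoter directs to the Schwann cell lineage, and every mouse received 0.4 mg tamoxifen within day 0 to 3 after birth. The 5 PRC2 wildtype tumors carried Plp-CreERT with the alleles Nf1(f/f) and Cdkn2a(f/f), and no other engineered allele is named for them. The 3 PRC2 loss tumors carried Eed(f/f) in addition to Plp-CreERT, Nf1(f/f) and Cdkn2a(f/f), and so were made to lose Eed, a core subunit of PRC2. Age at collection is not given in the sources used here. PRC2 loss tumor 1 is labelled with the right paraspinal nerve, tumor 2 with the left and tumor 3 with the right sciatic nerve. In the tumor codes, PRC2 loss tumors 2 and 3 share the number 7, wildtype tumors 1 and 2 the number 8, and wildtype tumors 3 and 4 the number 9, read here as animal numbers. There are then 3 wildtype mice and 2 PRC2 loss mice, and the p-values, which take each tumor as independent, would be too small.

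Red cells are packed with hemoglobin, a tetramer of alpha and beta globin chains that each hold a heme. During erythropoiesis, in the adult mouse mainly in bone marrow and spleen, the factors Gata1, Tal1 and Klf1 switch on the globin genes, the heme enzyme Alas2 and the membrane proteins that give the red cell its shape and carry its gases. Reticulocytes, the young red cells in circulation, still hold globin and other messenger RNA, so whole blood in a dissected tissue contributes erythroid transcripts to its RNA. PRC2 places a repressive methyl mark on histone H3 at lysine 27 and keeps many lineage genes silent in cells outside their lineage.

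Values are the deposited log2 gene counts, quantile normalized so that every tumor has nearly the same distribution. They hold no library totals, so sequencing depth is unknown. All tumors reach the same highest value of 18.764. A value of 0 is given only as listed at 0. The number of genes listed at 0 ran from 2686 to 3372 over the wildtype and from 1822 to 2113 over the PRC2 loss tumors. The Eed level was between 10.17 and 10.33 in the wildtype and at 8.76, 8.93 and 8.96 in the PRC2 loss tumors, lower in each of them; the value is for the whole gene, not the deleted part. Of 10 Schwann lineage markers none was listed at 0 in any tumor and 7 were higher in PRC2 loss (median log2 difference of the list 3.26). Of 15 housekeeping genes none rose and 9 fell (median log2 difference -0.76). The list of 8 skeletal muscle markers averaged 13.02 and 12.50 in wildtype tumors 1 and 2 and 3.73 to 5.52 in the other wildtype tumors, and 3.84, 6.37 and 9.59 in PRC2 loss tumors 1 to 3.

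Of the 9 erythroid genes 7 rose in PRC2 loss tumors and none fell, by limma with adjustment over all 20807 genes tested. Those 7 were Slc4a1, Rhag, Epb42, Hba-a1, Hba-a2, Hbb-bs and Alas2, and in each of them the 3 PRC2 loss tumors stood above all 5 wildtype tumors. Among all genes tested 35.68% passed the same test, 16.04% higher and 19.64% lower in PRC2 loss, and the groups did not overlap for 38.34%, 16.91% higher and 21.43% lower. The counts of genes that rose or fell in the lists below are to be read beside these shares. Hbb-bt and Klf1 did not pass the test, and their groups overlapped. With tumors that share an animal number averaged, 3 of the 9 genes passed (Slc4a1, Rhag and Epb42). In that fit 2113 of all 20807 genes tested were higher and 2113 lower. With animal number as a random block 5 of the 9 passed, these 3 with Hbb-bs and Hba-a2. Of all 20807 genes, 2700 were then higher and 3225 lower. The median log2 difference of the 9 genes was 4.62, against -0.12 for all genes tested. In bulk RNA, more cells of a type and more RNA per cell cannot be told apart. In the 9 panels of levels by tumor, the globins and Alas2 spread widely among the PRC2 loss tumors (SD from 2.64 to 3.29). Epb42, Slc4a1, Klf1 and Rhag spread less (SD 1.36, 0.98, 0.71 and 0.30).

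**Figure D1:**
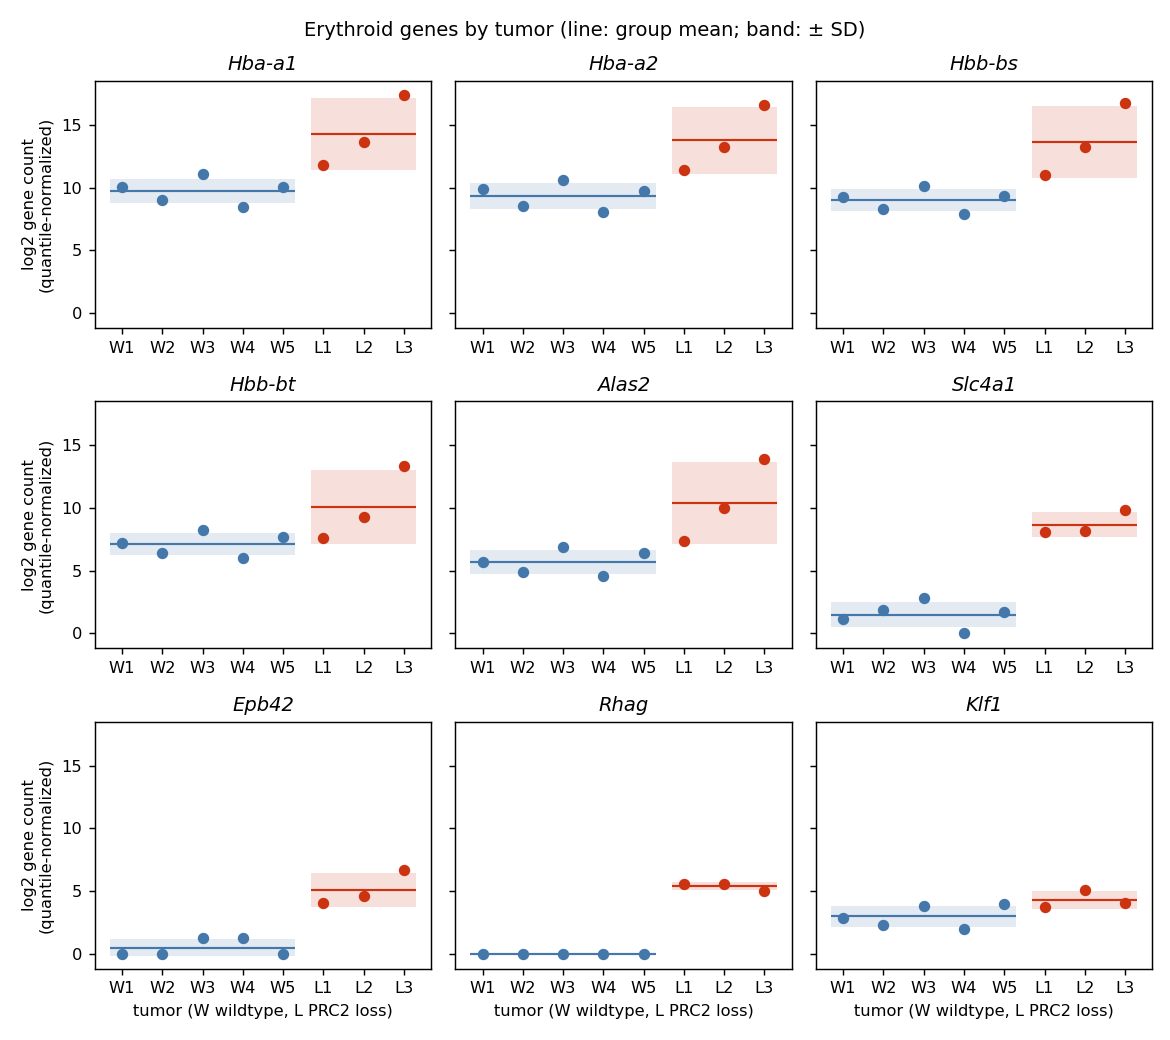
Quantile-normalized log2 gene count of each erythroid gene (vertical axis) in the 5 PRC2 wildtype tumors (W1 to W5, blue) and the 3 PRC2 loss tumors (L1 to L3, red); lines are group means and bands ± SD. Rhag was listed at 0 in all 5 wildtype tumors and between 5.04 and 5.57 in PRC2 loss, while Hba-a1 reached 17.42 in PRC2 loss tumor 3.

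The alpha globins rose together. Hba-a1, which encodes an alpha chain, stood at 10.04, 9.04, 11.05, 8.48 and 10.02 in wildtype tumors 1 to 5. PRC2 loss tumors 1 to 3 had 11.77, 13.65 and 17.42. PRC2 loss tumor 3 was far above the others, and PRC2 loss tumor 1 was 0.71 above the highest wildtype tumor, number 3. Between the groups the log2 difference came to 4.55 (SE 1.14, 95% interval 1.94 to 7.17), or 23.5-fold, and limma gave an adjusted p of 0.0159. Over all 56 ways to split 8 tumors into 5 and 3, the exact permutation test (two-sided) gave p = 0.0179, the smallest these splits allow. This test too takes each tumor as independent and does not keep tumors of 1 animal number together. Hba-a2, the second alpha gene, gave 9.88, 8.55, 10.59, 8.04 and 9.72 for the wildtype tumors and 11.39, 13.27 and 16.61 in PRC2 loss, in the same order of tumors within the PRC2 loss group. Its log2 difference was 4.40 (SE 1.08, limma adjusted p = 0.0144).

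The alpha genes are close copies, which bears on how far their values are separate measurements. In GENCODE release M21 (mm10) Hba-a1 lies on chromosome 11 from 32283511 to 32284465 and Hba-a2 on the same strand from 32296489 to 32297298. Their coding sequences of 429 bases differ at 1 base, and the longest run they share is 380 bases. The stretch around that base, coding bases 351 to 410, is shown with the differing base in capitals because reads that do not cover it cannot be assigned by the coding sequence.
Hba-a1: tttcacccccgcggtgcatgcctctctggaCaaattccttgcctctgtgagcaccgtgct
Hba-a2: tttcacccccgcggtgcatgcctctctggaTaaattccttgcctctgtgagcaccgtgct

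Of the beta globins Hbb-bs passed the test and Hbb-bt did not. Hbb-bs, on chromosome 7 from 103826534 to 103828096, stood at 9.27, 8.29, 10.16, 7.92 and 9.36 in wildtype tumors 1 to 5. In PRC2 loss tumors 1 to 3 it stood at 11.02, 13.25 and 16.71, all above the wildtype range. PRC2 loss was higher by 4.66 on the log2 scale (SE 1.12, 95% interval 2.10 to 7.22), or 25.3-fold, with limma adjusted p = 0.0132. Hbb-bt, from 103812524 to 103813996, stood at 7.20, 6.44, 8.27, 6.02 and 7.66 in the wildtype tumors; the PRC2 loss tumors had 7.60, 9.28 and 13.33. Here PRC2 loss tumor 1 lay inside the wildtype range, below wildtype tumors 3 and 5. The log2 difference of Hbb-bt was 2.95 (SE 1.15, 95% interval 0.31 to 5.59; limma adjusted p = 0.0781).

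The adult beta genes are close copies too. Their coding sequences of 444 bases differ at 1 base, with a longest shared run of 416 bases, and the stretch that holds it, coding bases 385 to 444, is shown for the same reason.
Hbb-bs: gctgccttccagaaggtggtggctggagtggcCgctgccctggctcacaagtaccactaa
Hbb-bt: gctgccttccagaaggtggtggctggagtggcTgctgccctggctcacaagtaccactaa
The table also lists Hbb-b1 and Hbb-b2, adult beta globin symbols that name no gene in GENCODE M21. Hbb-b2 had the same value as Hbb-bt in 8 of 8 tumors, so it is no separate measurement. Hbb-b1 stood at 8.72 to 11.05 in wildtype, against 11.87, 14.15 and 17.74 in PRC2 loss, with a log2 difference of 4.73 (SE 1.15, limma adjusted p = 0.0140). The counting method is not given in the sources used here, so all adult globin values are uncertain as measures of single genes.

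The balance between globins was also compared within each tumor. Hbb-bs minus Hbb-bt was 2.07, 1.85, 1.89, 1.90 and 1.70 in wildtype tumors 1 to 5 and 3.42, 3.97 and 3.39 in PRC2 loss tumors 1 to 3 on the log2 scale. The groups did not overlap, at 1.88 ± 0.13 (SD, n = 5) and 3.59 ± 0.33 (SD, n = 3), which correspond to ratios of 3.68 and 12.1. The two-sided exact permutation test over tumors gave p = 0.0179, the smallest the 56 splits allow, and p = 0.0537 after Benjamini-Hochberg adjustment over the 3 globin ratios computed. The difference did not pass that adjustment, but 1 ratio alone at the smallest p could not pass it whatever its size. The adjusted value therefore does not decide whether the ratio differed. The ratios were chosen after the values were seen, and the strain background of the mice is not given in the sources used here. Hba-a1 minus Hba-a2 was 0.37 ± 0.14 (SD, n = 5) and 0.52 ± 0.25 (SD, n = 3), and Hba-a1 minus Hbb-bs 0.73 ± 0.13 (SD, n = 5) and 0.62 ± 0.19 (SD, n = 3). Exact permutation p-values for these were 0.357 and 0.375, and 0.375 for both after adjustment. Hba-a1 stayed between 0.40 and 0.90 above Hbb-bs in all 8 tumors, while the levels of these genes ran from 7.92 to 17.42.

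**Figure D2:**
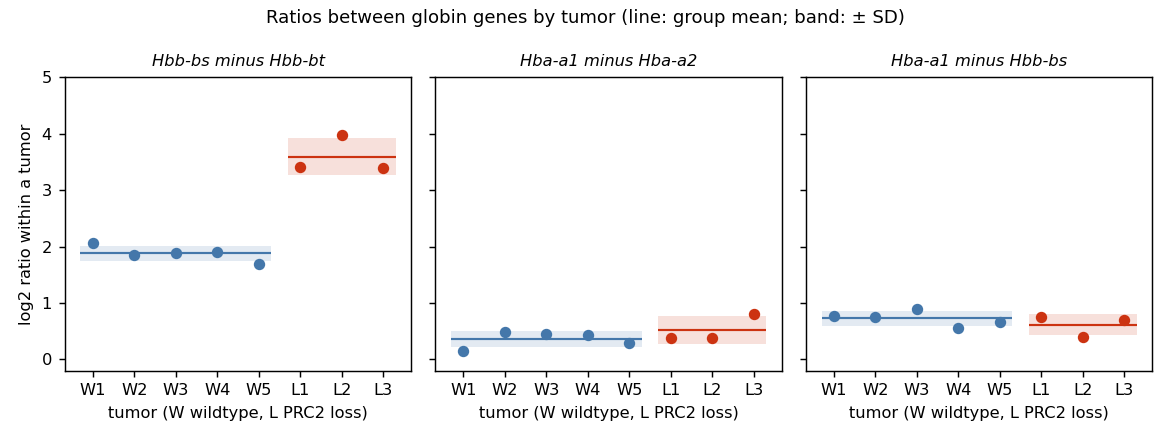
Log2 ratio of 1 globin gene to another within each tumor (vertical axis) for the wildtype (W1 to W5, blue) and PRC2 loss tumors (L1 to L3, red); lines are group means and bands ± SD. Hbb-bs to Hbb-bt lies between 1.70 and 2.07 in wildtype and between 3.39 and 3.97 in PRC2 loss, whereas the other ratios overlap.

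The embryonic globins did not accompany the adult ones. Hba-x, the embryonic alpha-like zeta chain, was listed at 0 in all 8 tumors. Hbb-y and Hbb-bh1, embryonic beta-like chains, were listed at 0 in all 3 PRC2 loss tumors and in 3 of 5 wildtype tumors. Hbq1b, a theta globin, stood at 1.74 ± 1.37 (SD, n = 5) for wildtype and 3.95 ± 0.68 (SD, n = 3) for PRC2 loss tumors and missed the threshold (limma adjusted p = 0.0573). Of the 6 tested genes of the embryonic and minor globin list 1 rose, Hbb-b1, and none fell. Among globins of other tissues, neuroglobin (Ngb) rose by a log2 difference of 2.29 (limma adjusted p = 0.0322) and cytoglobin (Cygb) by 1.81 (limma adjusted p = 0.0468). Both act outside the red cell lineage. These calls were lost without any 1 of 5 tumors for Ngb (limma adjusted p from 0.0530 to 0.0878) and any 1 of 6 for Cygb (from 0.0703 to 0.150).

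Alas2, the erythroid form of the enzyme that starts heme synthesis, followed the globins. On chromosome X from 150547375 to 150570638, it stood at 5.65, 4.92, 6.90, 4.55 and 6.40 in wildtype tumors 1 to 5. PRC2 loss tumors 1 to 3 had 7.38, 9.96 and 13.90. Wildtype tumor 3 was the highest and tumor 4 the lowest of the wildtype tumors, as for all 4 adult globins. On the log2 scale PRC2 loss exceeded wildtype by 4.73 (SE 1.29, 95% interval 1.78 to 7.67), or 26.5-fold, with limma adjusted p = 0.0219. The call was lost in 5 of 18 alternatives: without PRC2 loss tumor 2 (limma adjusted p = 0.0588), with animal numbers averaged (0.102), with animal number as a random block (0.0632), with the replicate number as a block (0.0848) and with the globin mean as a covariate (0.952). Relative to the mean of the 4 adult globins in the same tumor, Alas2 was lower by 3.11 ± 0.23 (SD, n = 5) for wildtype and by 2.53 ± 0.49 (SD, n = 3) for PRC2 loss tumors.

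The genes of the heme synthesis list, enzymes and transporters among them, moved little and, on the deposited scale, in both directions. Of 14 genes on the heme synthesis list 5 rose and 3 fell, with a median log2 difference of 0.08. Alad, the enzyme of the second step, rose by 0.60 (SE 0.13, limma adjusted p = 0.00871) and Abcb6, a mitochondrial porphyrin transporter, by 0.85 (SE 0.16, limma adjusted p = 0.00434). Tmem14c, which carries the heme precursor protoporphyrinogen into mitochondria, fell by 0.68 on the log2 scale (SE 0.13, limma adjusted p = 0.00452), and the porphyrin enzyme Uros fell by 0.85 (SE 0.20, limma adjusted p = 0.0122). Of 12 genes of iron uptake and storage none rose and 2 fell, the iron transporter Slc11a2 and the iron chaperone Pcbp1, by 0.60 and 0.61. Over all genes tested 16.04% were higher and 19.64% lower, so 2 lower genes of 12 are no trait of this list. With housekeeping centring the differences of Tmem14c, Uros, Slc11a2 and Pcbp1 shrank to -0.08, -0.26, -0.0049 and -0.014 and none of these 4 passed, while Alad and Abcb6 rose by 1.197 and 1.443. On that scale 8 of the 14 heme synthesis genes rose and none fell, and 3 of the 12 iron genes rose and none fell. Of all 20807 genes tested, 7610 were then higher and 1576 lower.

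Slc4a1 had the largest difference of the 9 genes on the deposited scale; with 16 added on the linear scale it differed by 4.46, below Hbb-bs at 4.61 and Hba-a1 at 4.52. It encodes band 3, the anion exchanger that is the most abundant protein of the red cell membrane, and lies on chromosome 11 from 102348824 to 102366203. The level was 1.13, 1.85, 2.80, 0 and 1.70 in wildtype tumors 1 to 5 and 8.04, 8.16 and 9.80 in PRC2 loss tumors 1 to 3. The PRC2 loss tumors thus lay within 1.76 of each other and at least 5.24 above every wildtype tumor. The groups differed by 7.17 on the log2 scale (SE 0.72, 95% interval 5.54 to 8.81), with limma adjusted p = 0.000379 and exact permutation p = 0.0179. A fold of 144 follows from the deposited log2 values, and wildtype tumor 4 is listed at 0, so this figure depends on the unstated offset before the log.

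Rhag and Epb42, which work beside band 3 in the membrane, were listed at 0 in most or all wildtype tumors. Rhag, a gas and ammonium channel of the Rh complex, on chromosome 17 from 40811126 to 40840754, was listed at 0 in all 5 wildtype tumors. PRC2 loss tumors 1 to 3 had nearly equal levels of 5.56, 5.57 and 5.04. This is a log2 difference of 5.39 (SE 0.27, limma adjusted p = 3.51e-05), and no fold is given against a group listed at 0. The size of such differences depends on the offset: with 16 added on the linear scale Rhag differed by 1.77 and Epb42, described next, by 1.62, and both still passed (limma adjusted p = 4.25e-05 and 0.0124). Rhag was also the only one of the 9 genes that was lowest, within the PRC2 loss group, in tumor 3. Epb42, the membrane skeleton protein 4.2 that binds band 3, on chromosome 2 from 121017891 to 121037072, was listed at 0 in wildtype tumors 1, 2 and 5 and at 1.22 and 1.23 in tumors 3 and 4. In PRC2 loss tumors 1 to 3 it stood at 4.06, 4.63 and 6.64, all above the wildtype tumors. The log2 difference was 4.62 (SE 0.64, 95% interval 3.15 to 6.10; limma adjusted p = 0.00136).

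Other genes of the red cell membrane and its skeleton were split. Of 22 such genes 10 rose and 4 fell, with a median log2 difference of 1.21. Kel and Tspo2, the Kell blood group protease and an erythroid translocator protein, had no value above 0 in wildtype, and in PRC2 loss they averaged 4.31 ± 0.56 and 2.79 ± 1.08 (SD, n = 3; limma adjusted p = 9.62e-05 and 0.00204). Dmtn, the actin-bundling protein dematin, rose by 2.19 (SE 0.22, limma adjusted p = 0.000417). Named after their values were seen, Sptb, which encodes beta spectrin, rose by 5.25 (SE 1.08, limma adjusted p = 0.00689), whereas Ank1, which encodes the ankyrin that ties band 3 to spectrin, fell by 1.62 (SE 0.36, limma adjusted p = 0.00938). Dmtn, Sptb and Ank1 also act in cells outside the red cell lineage.

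Klf1, the erythroid factor that binds CACCC boxes, did not pass the test. On chromosome 8 from 84901928 to 84905291, its level was 2.88, 2.32, 3.78, 1.97 and 3.94 in wildtype tumors 1 to 5 and 3.74, 5.10 and 4.02 in PRC2 loss tumors 1 to 3. PRC2 loss tumor 1 lay below wildtype tumors 3 and 5, and PRC2 loss tumor 3, the highest for all 4 adult globins, was within 0.28 of tumor 1. The log2 difference was 1.31 (SE 0.60, 95% interval -0.07 to 2.69; limma adjusted p = 0.126, exact permutation p = 0.0714). With each tumor centred on 15 housekeeping genes Klf1 passed (limma adjusted p = 0.0351), and so it did with array weights (limma adjusted p = 0.0489). That centring also brought Hbb-bt past the threshold (limma adjusted p = 0.0274) and raised the median log2 difference of all genes tested from -0.12 to 0.47, with 7610 genes higher and 1576 lower in place of 3337 and 4087.

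Among 16 transcription factors of erythroid development 4 rose and 2 fell, with a median log2 difference of 0.96. Over all genes tested 16.04% were higher and 19.64% lower. Tal1, which forms a complex with Gata1 and Lmo2 and is also expressed in endothelium, stood at 7.57 ± 0.08 (SD, n = 5) and 11.32 ± 0.02 (SD, n = 3), with nearly equal values in the 3 PRC2 loss tumors. Zfpm1, the Gata1 cofactor Fog1, rose by 1.57 (SE 0.23, limma adjusted p = 0.00180). Gata1 itself stood at 2.44, 0, 3.04, 3.05 and 3.51 in the wildtype tumors against 4.99, 4.50 and 5.56 in PRC2 loss, a difference of 2.61 (log2; SE 0.80, limma adjusted p = 0.0339), and is named after its value was seen; that call was lost in 8 of 18 alternatives (limma adjusted p from 0.0590 to 0.442 in those 8). Zbtb7a and Bcl11a, repressors of fetal globin in humans, fell by 0.84 and 1.05 (limma adjusted p = 0.00909 and 0.0361); with housekeeping centring neither passed (limma adjusted p = 0.371 and 0.331), and the Bcl11a call was lost in 11 of 18 alternatives.

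Of 19 tested red cell enzymes and maturation genes 9 rose and 1, the peroxidase gene Prdx2, fell, with a median of 0.97. Trim10, which encodes an erythroid ubiquitin ligase, stood at 1.23 ± 1.31 (SD, n = 5) and 7.86 ± 0.36 (SD, n = 3), with the 3 PRC2 loss tumors at 7.87, 7.50 and 8.22. Car1, an erythroid carbonic anhydrase, was listed at 0 in 4 of 5 wildtype tumors, and PRC2 loss tumors had 4.09, 5.86 and 5.48 (limma adjusted p = 0.000868). Tent5c, a poly(A) polymerase gene, rose by 2.40 (SE 0.29, limma adjusted p = 0.000783). Of 9 tested genes of erythropoietin signaling 1 rose, the stem cell factor receptor gene Kit, and 3 fell, namely Jak2, the kinase of the erythropoietin receptor, by 0.67, the feedback inhibitor Socs3 by 1.57, and Erfe, the erythroid hormone that lowers hepcidin, by 2.09. Of 11 genes of hemoglobin and heme clearance Cd163, the macrophage receptor for hemoglobin, rose by 3.25 (SE 0.63, limma adjusted p = 0.00543) and the heme transporter gene Slc48a1 by 0.51 (limma adjusted p = 0.0418), while Spic, a factor of red pulp macrophages, and Vcam1 fell by 2.49 and 1.49. Jak2, Erfe and Prdx2 did not pass with housekeeping centring (limma adjusted p = 0.745, 0.0866 and 0.299). The call was also lost without any 1 of 5 tumors for Erfe (limma adjusted p from 0.0535 to 0.130) and any 1 of 6 for Slc48a1 (from 0.0763 to 0.144).

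**Figure D3:**
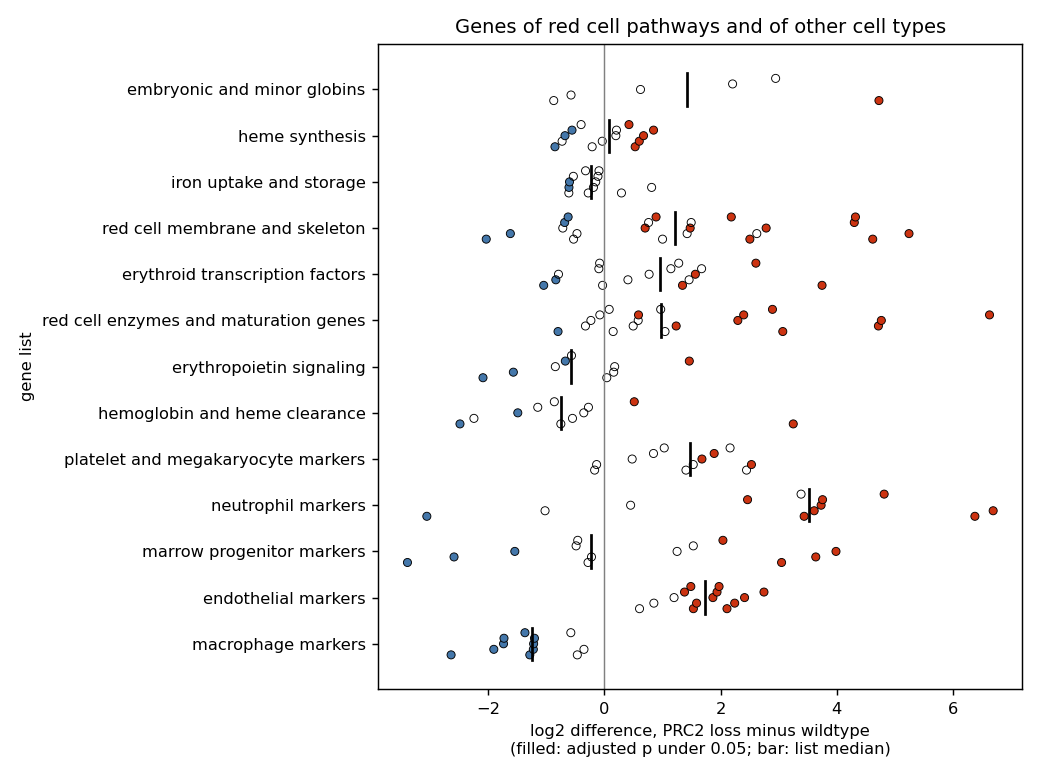
Log2 difference between PRC2 loss and wildtype tumors (horizontal axis) for each tested gene of the red cell pathway lists and of other cell types; filled points had a limma adjusted p under 0.05, red higher and blue lower, and bars are list medians. The membrane list reaches 5.25 with Sptb, and the neutrophil list has the highest median, 3.53.

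Among markers of other blood cells and of vessels, most neutrophil and endothelial genes rose and most macrophage genes fell. Most platelet genes did not pass, and marrow progenitor genes were split. Over all genes tested 16.04% were higher and 19.64% lower. The part of these cells in the erythroid differences was not tested. Of 12 neutrophil markers 8 rose and 1, Mmp9, fell (median log2 difference 3.53). The log2 of their summed linear values ran from 11.16 to 13.48 in wildtype tumors and stood at 12.18, 13.46 and 14.29 in PRC2 loss tumors 1 to 3, the same order as the adult globins. Mmp9, the gene that fell, makes up much of the wildtype sum, with 10.32 to 13.05 in wildtype and 7.12, 9.25 and 10.20 in PRC2 loss. S100a8 and S100a9, calcium-binding proteins abundant in neutrophils, were at 9.73, 11.31 and 12.02 and at 9.94, 11.58 and 12.45 in these tumors, and none of the 12 was listed at 0 in PRC2 loss. Of 14 endothelial markers 11 rose and none fell (median 1.73), with a summed level of 13.76 to 14.53 in wildtype and 15.74, 15.61 and 16.52 in PRC2 loss. Of 12 platelet and megakaryocyte markers 3 rose and none fell (median 1.47), and 1 rose without PRC2 loss tumor 1 or without PRC2 loss tumor 3. Their summed level was 9.79 to 10.32 in wildtype and 10.57, 10.46 and 11.22 in PRC2 loss, and Gp6 was listed at 0 in PRC2 loss tumors 1 and 2. Of 13 tested marrow progenitor markers 4 rose and 3 fell (median -0.22), with a summed level of 13.31 to 14.63 in wildtype and 12.71, 13.92 and 14.34 in PRC2 loss. Most of that sum is Cd34, which endothelium also expresses, at 13.09 to 14.59 in wildtype and 12.61, 13.87 and 14.31 in PRC2 loss. The granulocyte precursor genes Mpo and Ctsg were among those that rose, the lymphoid precursor genes Dntt and Vpreb3 among those that fell, and Rag2 was listed at 0 in all 8 tumors. Without PRC2 loss tumor 1, Mmp9 (-2.19) and Vpreb3 (-2.43) no longer passed (limma adjusted p = 0.0694 and 0.0513). Of 12 macrophage markers none rose and 9 fell (median -1.26).

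The PRC2 loss tumors differed among themselves far more in the globins and Alas2 than in Slc4a1 and Rhag. Tumor 3 minus tumor 1 was 5.65 for Hba-a1, 5.21 for Hba-a2, 5.69 for Hbb-bs, 5.72 for Hbb-bt and 6.53 for Alas2 on the log2 scale. For Epb42 it was 2.58, for Slc4a1 1.76, for Klf1 0.28 and for Rhag -0.52. The mean of the 4 adult globins was 10.45, 12.36 and 16.02 in PRC2 loss tumors 1 to 3 against 8.80 ± 0.95 (SD, n = 5) in wildtype. Relative to that mean, Slc4a1 was lower by 2.40, 4.20 and 6.21 in the same 3 tumors and by 7.30 ± 0.66 (SD, n = 5) in wildtype. Tumors under 1 animal number differed as well: the globin mean of PRC2 loss tumor 3 was 12.6-fold that of tumor 2, both under number 7. Wildtype tumors 3 and 4, the highest and lowest wildtype tumors for all 4 globins, both carry number 9 and differed 5.29-fold. Rhag differed by 0.53 between PRC2 loss tumors 2 and 3.

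**Figure D4:**
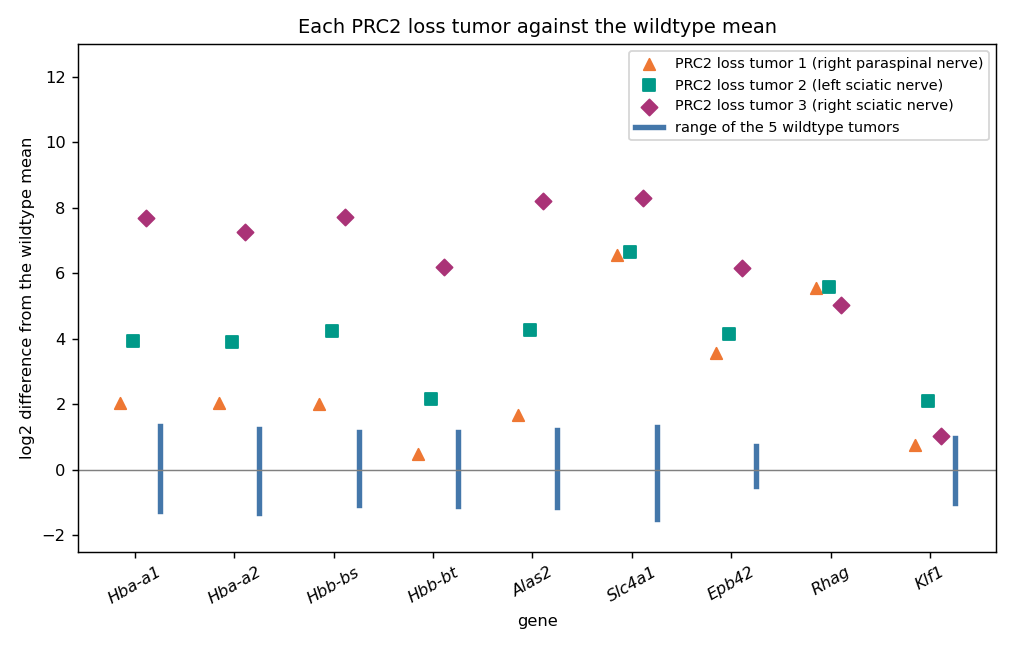
Log2 difference of each PRC2 loss tumor from the wildtype mean (vertical axis) for each erythroid gene; blue bars span the 5 wildtype tumors. The globins and Alas2 are widely spread over the 3 tumors, Slc4a1 and Rhag are less spread and far from the wildtype range, and Klf1 and Hbb-bt in tumor 1 lie within that range.

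With the mean of the 4 adult globins as a covariate, an alternative chosen after the data were seen, the differences of the other genes parted. Slc4a1 kept a log2 difference of 5.40 (SE 0.91, limma adjusted p = 0.0186) and Rhag of 5.73 (SE 0.42, limma adjusted p = 0.00259). Epb42 had 3.02 (SE 0.82) and no longer passed (limma adjusted p = 0.0604). The Alas2 difference fell to 0.05 (SE 0.43, limma adjusted p = 0.952), and that of Klf1 was 0.67 (SE 0.99, limma adjusted p = 0.705). The lowest globin mean among PRC2 loss tumors, 10.45, exceeds the highest among wildtype tumors, 10.02, so this covariate takes up part of the group difference.

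Leaving out PRC2 loss tumor 3 lowered the difference of Hba-a1 to 2.98, Hba-a2 to 2.98, Hbb-bs to 3.13 and Alas2 to 2.98, with limma adjusted p from 0.0241 to 0.0478, and those 4 still passed. Hbb-bt stood at 1.32 without it (limma adjusted p = 0.210) and passed only without PRC2 loss tumor 1 among the fits that left out 1 tumor (4.18, limma adjusted p = 0.0297). Slc4a1 and Rhag gave 6.61 and 5.57 without tumor 3. Leaving out PRC2 loss tumor 1, the lowest for the globins, raised Hba-a1 to 5.81, Hba-a2 to 5.58, Hbb-bs to 5.98 and Alas2 to 6.25. When tumors that share an animal number were averaged, Slc4a1, Rhag and Epb42 passed (limma adjusted p = 0.00877, 0.00832 and 0.0179), and the 4 adult globins and Alas2 did not (limma adjusted p from 0.0571 to 0.199). With animal number as a random block the calls for Hba-a1 and Alas2 were lost (limma adjusted p = 0.0509 and 0.0632).

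**Figure D5:**
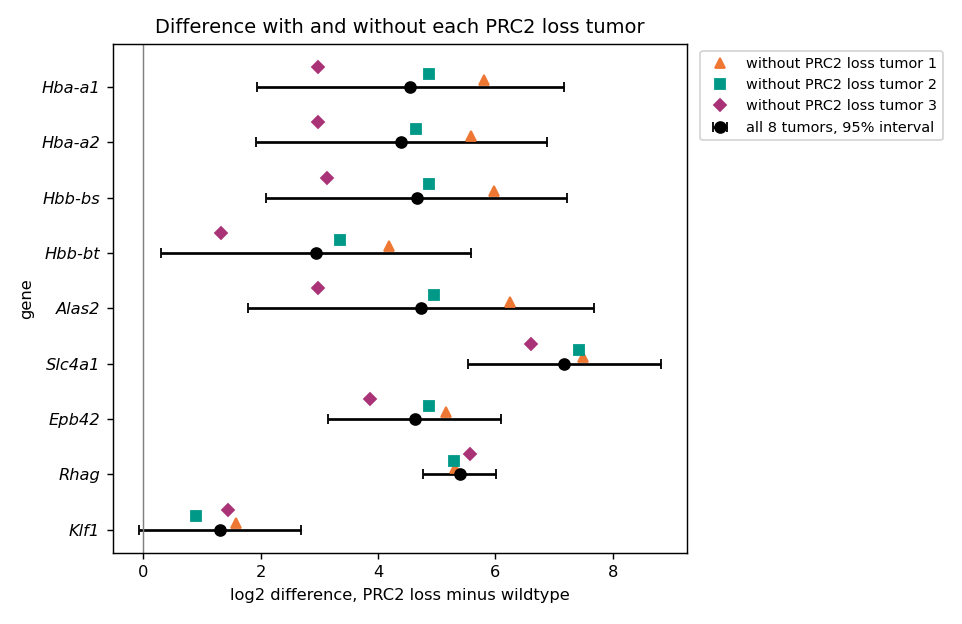
Log2 difference between PRC2 loss and wildtype tumors (horizontal axis) for each gene, with all 8 tumors and its 95% interval (black) and without PRC2 loss tumor 1, 2 or 3 (colored). Leaving out tumor 3 takes Hba-a1 from 4.55 to 2.98, while Rhag stays between 5.30 and 5.57 in all 3 fits.

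Promoter sequences, from 250 bases before to 50 bases after the start, were found in RefSeq (GRCm38.p6, the assembly of mm10) for 8 of the 9 genes, all but Slc4a1. The start used there can differ from the gene limits in GENCODE M21 given above, as for Hba-a1 and Hbb-bs. Those of a globin of each kind, of Alas2 and of the membrane genes Rhag and Epb42 are shown because their genes were spread differently over the PRC2 loss tumors. Capitals mark GATAA, the core of Gata1 sites, and CACCC, the box Klf1 binds, on either strand (TTATC and GGGTG when reversed). These motifs do not overlap each other here, though CACCC matches can adjoin, as in Alas2.
Hba-a1, chr11:32283422-32283721, plus strand: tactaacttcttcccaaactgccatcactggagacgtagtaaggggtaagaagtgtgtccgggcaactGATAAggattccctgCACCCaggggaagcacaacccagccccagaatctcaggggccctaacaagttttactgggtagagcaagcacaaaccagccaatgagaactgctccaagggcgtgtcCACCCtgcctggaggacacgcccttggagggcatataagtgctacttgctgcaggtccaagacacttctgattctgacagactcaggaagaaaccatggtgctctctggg
Hbb-bs, chr7:103827879-103828178, minus strand: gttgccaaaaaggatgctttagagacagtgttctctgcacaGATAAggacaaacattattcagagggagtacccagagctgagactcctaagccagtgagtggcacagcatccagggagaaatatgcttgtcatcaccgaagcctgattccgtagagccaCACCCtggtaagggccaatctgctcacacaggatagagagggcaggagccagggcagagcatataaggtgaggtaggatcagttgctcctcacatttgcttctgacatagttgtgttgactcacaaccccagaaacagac
Alas2, chrX:150547167-150547466, plus strand: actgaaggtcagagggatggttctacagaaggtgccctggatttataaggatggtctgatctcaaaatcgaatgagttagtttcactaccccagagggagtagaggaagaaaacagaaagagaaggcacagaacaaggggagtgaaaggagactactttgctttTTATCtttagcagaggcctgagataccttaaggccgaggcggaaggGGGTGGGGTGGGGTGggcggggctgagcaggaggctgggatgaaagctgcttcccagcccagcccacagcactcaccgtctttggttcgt
Rhag, chr17:40810899-40811198, plus strand: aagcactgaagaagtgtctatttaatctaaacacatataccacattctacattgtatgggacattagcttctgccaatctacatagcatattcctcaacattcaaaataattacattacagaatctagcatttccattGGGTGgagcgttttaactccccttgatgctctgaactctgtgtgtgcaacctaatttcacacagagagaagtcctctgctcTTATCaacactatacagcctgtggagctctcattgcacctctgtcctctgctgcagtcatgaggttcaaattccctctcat
Epb42, chr2:121036828-121037127, minus strand: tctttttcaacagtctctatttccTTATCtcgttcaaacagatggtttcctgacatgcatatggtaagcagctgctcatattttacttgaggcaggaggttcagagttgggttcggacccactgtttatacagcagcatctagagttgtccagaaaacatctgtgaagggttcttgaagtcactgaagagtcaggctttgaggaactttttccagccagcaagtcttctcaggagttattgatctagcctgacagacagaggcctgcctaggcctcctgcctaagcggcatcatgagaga
GATAA was found in all 8 erythroid promoters, against 25.4% of 32851 promoters of that length, and CACCC in 7, all but Epb42, against 57.5%. A match to CCAAT, a general promoter box, was in 6 of the 8, against 37.4%. The promoters held 1 to 6 CpG dinucleotides, the fewest in Rhag and Hbb-bt and the most in Alas2, against a median of 7 over all promoters. Hba-a1 and Hba-a2 share a run of 297 bases in this window, Hbb-bs and Hbb-bt one of 14. Rhag, with nearly equal values in the 3 PRC2 loss tumors, and Hba-a1 and Hbb-bs, with widely spread ones, each held GATAA and CACCC matches. GATAA was in all 8 promoters, so its presence could not separate these genes. A link between the motifs and the spread was not tested.

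The genes whose pattern over the 8 tumors was most like the mean of the 9 erythroid genes were chosen by the root mean square difference of log2 values after centring each gene on its own mean. Closest was Hbb-b1 (0.60), the other adult beta globin symbol. Fezf1 (0.66), Nkx2-1 (0.68), Slc22a8 (0.69), Bmx (0.70) and Sfta3-ps (0.71) were also among the closest. Of these 6, Hbb-b1 belongs to a list of red cell genes used here. Fezf1 and Nkx2-1 encode developmental transcription factors, and both are listed at 0 in each of the 5 wildtype tumors. In PRC2 loss tumors 1 to 3 Fezf1 had 2.45, 3.46 and 5.15 and Nkx2-1 had 2.76, 2.80 and 6.67. Bmx, which encodes a kinase found in endothelium, stood at 3.80 to 5.39 in wildtype, against 8.14, 8.24 and 9.87 in PRC2 loss. Slc22a8, an organic anion transporter gene, was listed at 0 in wildtype, against 3.74, 5.29 and 7.03 in PRC2 loss.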

How the data were processed

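Per the labels' protocols, Trizol-extracted RNA of 8 mouse MPNST went into Illumina TruSeq poly-A libraries. Trim Galore, STAR 2.6, Partek 7.0 and mm10 are named in the submitters' processing notes; the sources used here do not give annotation, counting, strand use or filters. Quantile-normalized log2 gene counts are what the authors deposited, with the offset before the log not stated. Fold changes are 2 raised to a log2 difference, and those of low genes depend on that offset. Depth is unknown, so no counting interval is given.

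Genes constant over all tumors (136 of 20943) were left out, and 20807 were fitted with limma 3.58.1 (R 4.3.3; trended empirical Bayes, two-sided, Benjamini-Hochberg over all genes, threshold 0.05), 9578 of them with an unadjusted p below 0.05. The procedure was tested on simulated data with independent tumors and with shifts only in genes at or above the median mean. That simulation does not cover low genes or tumors that share an animal number. The 9 genes and the lists were chosen with earlier results of these data known, as were the tests. Of each list, the text names up to 4 genes past the threshold by smallest p, and others only where it says so or to account for a count; it also names the 9 genes, Eed and genes among the 8 of most similar pattern, and housekeeping genes serve as a check. A few genes taken by this rule are not reported here; list counts and fits include them. Titles give both groups replicate numbers, which the labels do not tie to a shared mouse or day. Nothing in the labels gives a batch. Alternatives were pseudocounts of 1 and 16, a filter on low genes, other variance settings, array weights, housekeeping centring, animal number averaged or as a block, the replicate number as a block, and each tumor left out; the globin mean as a covariate was added after seeing the data.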

Additional observations from a re-analysis of the deposited data

Results flagged for a closer look

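Within the 5 wildtype tumors, 6 of 75 named genes with any spread had 1 tumor far from the others by Dixon's test at its 95% critical value, a rate that chance gives in about 1 of 20 groups. Car1 stood at 1.85 in wildtype tumor 2 and was listed at 0 in the other wildtype tumors. Jak2 stood at 12.18 in wildtype tumor 2 and at 11.69 to 11.81 in the others, and Slc48a1 at 12.01 in the same tumor and at 11.47 to 11.58 in the others. Ms4a3, a granulocyte precursor gene, stood at 1.23 in wildtype tumor 4 and was listed at 0 in the others. Prdx2 stood at 12.16 in wildtype tumor 2 and at 12.57 to 12.70 in the others, and Gp6, a platelet collagen receptor gene, at 1.23 in wildtype tumor 4 and at 0 in the others. For Car1, Ms4a3 and Gp6 the other wildtype tumors were tied at 0, so any value above 0 is flagged and the rate of 1 in 20 does not apply. None of the 9 erythroid genes was among the 6 flagged genes.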

How the results depend on the processing

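The count of erythroid genes higher in PRC2 loss was 7 of 9 with all 8 tumors, and no alternative placed any of them lower. Leaving out genes below the median mean left 3 of them in the fit (Hbb-bs, Hba-a1 and Hba-a2) and all 3 were higher; of all genes 1715 were then higher and 2533 lower, since fewer genes were tested. Centring on housekeeping genes gave 7610 higher and 1576 lower. Averaging tumors by animal number gave 3 erythroid genes higher (Slc4a1, Rhag and Epb42) with 2113 genes higher and 2113 lower, on 5 units in place of 8. The replicate number as a block also left those 3 genes higher (limma adjusted p = 0.0320, 0.0320 and 0.0338), and gave 1129 genes higher and 774 lower. Samples that share a replicate number share only that number: the correlations of their deviations from the group means were -0.155, 0.0945 and -0.0482, and only PRC2 loss tumor 2 correlated best with its own number. With the mean of the 4 adult globins as a covariate, 1147 genes were higher and 929 lower, and the cause was not tested. Leaving out each tumor in turn gave 6 to 8 erythroid genes higher and none lower, 2555 to 3413 genes higher and 2972 to 4284 lower. Over all 82 named genes, 1308 of 1508 alternative fits kept direction and side of the threshold, 183 fell below the threshold and 11 rose past it. The sign turned for 3 genes that never passed, Hbb-bh1 (0.021 centred on housekeeping genes), Cd34 (0.37 with that centring, and -0.58 to 0.27 without each tumor in turn) and Gp6 (0.46 with that centring, 0.11 with the replicate block, and -0.25 to 0.11 without each tumor in turn), and the cause was not tested. Because depth is not in the deposited values, the precision of low genes such as Epb42, Klf1 and Rhag cannot be given from counts.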
